A study of Homo sapiens with 4 samples.

Results

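The transcripts described here encode 10 receptor tyrosine kinases that lie outside the EGFR, Eph and VEGF receptor families: AXL, TYRO3, MET, IGF1R, INSR, FGFR1, DDR1, ROR1, RYK and PTK7. They were selected by gene symbol from a table of 36203 gene identifiers. All 10 were among the 12848 genes tested, those with at least 1 FPKM in at least 2 of the 4 libraries. ROR1 met that minimum only through its RIP values. FPKM, the fragments per kilobase of a gene after scaling by library size, is a relative level.

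The study used RNA immunoprecipitation followed by sequencing (RIP-seq) in a human breast cancer cell line. In the 2 RIP libraries, RNA was recovered with a Santa Cruz Biotechnology antibody against YTHDF3, and the 2 input libraries had no antibody. Both groups came from cells kept in DMEM with serum and antibiotics, with no treatment or genetic change given, and named MDA-MB-231Br in the growth protocol and MDA-MB-231 in the sample labels. The series title places the work in breast cancer metastasis to the brain, and the comparison made here is which receptor transcripts were over- or under-represented in the YTHDF3 RIP relative to input. No control antibody is part of the comparison, so recovery through YTHDF3 and unspecific recovery cannot be told apart. Whether the 2 libraries of a group derive from separate cultures is not stated in the labels. The p-values therefore reflect variation among these libraries alone, possibly technical.

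A receptor tyrosine kinase binds a ligand outside the cell and, in most families, adds phosphate to tyrosines of itself and of adaptor proteins inside it, which starts RAS, PI3K and related signalling. ROR1, RYK and PTK7 have kinase domains with little or no activity and act as receptors or co-receptors in Wnt signalling. YTHDF3 is a cytoplasmic protein that binds N6-methyladenosine (m6A) in mRNA and is known to act on translation and decay. The methyl group is placed mostly within the DRACH motif, of which GGACT is a common form, often near stop codons.

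For orientation, the stretch around the GGACT nearest to the stop codon is shown for the 7 receptors whose RIP and input values did not overlap. Capitals mark GGACT, with the A that can be methylated at their centre, and each line reads 5′ to 3′ on the RNA strand with T for U. The letters come from GENCODE release 29 transcripts (GRCh38), 1 per gene, chosen for the longest coding sequence. Each window holds 25 bases. The first 4 belong to receptors above input in RIP and the last 3 to receptors below it.
MET: cactattataGGACTtgtattgtta
IGF1R: gggtttccagGGACTcagccccact
INSR: atcttaaggtGGACTcgtttggtta
ROR1: gtcctgggagGGACTctcaagtcac
AXL: ctgtctggatGGACTgtatgccttg
RYK: tacttactttGGACTaggggtacat
TYRO3: tgggaagcccGGACTgaccaaatca

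The windows of MET (chr7:116796227-116796251, plus strand), IGF1R (chr15:98958444-98958468, plus strand) and INSR (chr19:7116892-7116916, minus strand) lay in the 3′ UTR, where the A stood 117, 1016 and 154 bases after the start of the stop codon. Those of RYK (chr3:134157874-134157898, minus strand) and TYRO3 (chr15:41578408-41578432, plus strand) were in the 3′ UTR too, 269 and 146 bases after it. The ROR1 window (chr1:64178282-64178306, plus strand) lay in coding sequence of the last of 9 exons. The AXL window was coding sequence that crosses an exon junction, with GGACT in exon 19 of 20 (chr19:41257615-41259562, plus strand, intron included). The motif was thus present in receptors on both sides of the comparison. All 10 receptor transcripts held it, with 2 to 9 copies each, and so did 91.0% of 10834 tested protein-coding genes with a coding transcript (56.7% in the 3′ UTR). A match of 5 letters on the RNA strand describes sequence and is no evidence of methylation or binding.

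The labelled cell type was checked against its markers. Several mesenchymal genes were abundant, with VIM at 294 and 1258 FPKM in RIP and 727 and 1322 FPKM in input. FN1 was lower, at 7.45 and 10.3 FPKM in RIP and 14.1 and 8.25 FPKM in input. TGFBI was at most 1.44 FPKM and SPARC at most 0.132 FPKM in any library. Of the luminal markers, ESR1 and CDH1 were listed at 0 in all 4 libraries, PGR and GATA3 did not exceed 0.312 FPKM, but KRT19, FOXA1 and ERBB3 were detected. ERBB3 had 1.94 and 3.64 FPKM in RIP and 5.99 and 0.162 FPKM in input. FOXA1, a luminal transcription factor, had 56.9 and 21.3 FPKM in RIP and 5.66 and 5.13 FPKM in input. PTPRC, GFAP, COL3A1 and ALB were listed at 0 throughout, and the endothelial marker PECAM1 was at most 0.690 FPKM. One library stands apart: RIP 2 had the lowest estimated depth (about 3110000 reads, against 10400000 in RIP 1 and 6140000 and 7310000 in the inputs), and on chromosome 1 its protein-coding genes exceeded RIP 1 by a median of 1.67 log2 units (n = 1138). On the chromosomes of the other 9 receptors (3, 6, 7, 8, 15 and 19) the same median ran from -0.83 to -0.45.

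Among the 10 receptors, 1 was higher in RIP than in input and 1 was lower at an adjusted p under 0.05 (limma on log2(FPKM + 1), Benjamini-Hochberg over all genes tested): ROR1 rose and RYK fell. Over all 12848 genes, 15.4% were called higher and 24.3% lower, so the receptors held no more calls than genes at large. MET, IGF1R, INSR and ROR1 had both RIP values above both inputs (35.7% of all genes did). For ROR1 that order was built in, because it passed the filter on low values only through RIP. AXL, RYK and TYRO3 had both RIP values below both inputs (40.1% of all genes), and 3 receptors overlapped. The median log2 fold change of the receptors was -0.10 (SD over receptors 1.67), and that of all genes was -0.10 (SD 1.82). A fit that leaves out 1 library has 1 library in that group, which is assumed to vary like the other group. Its p-values and calls, here and below, therefore reflect the spread within the other group alone. Without RIP 2 the median log2 fold change of the receptors was 0.95, and without RIP 1 it was -1.14. Without input 1 or without input 2, limma called 0 genes in the whole table, with 737 and 608 genes higher and 2299 and 2257 lower at an unadjusted p under 0.05.

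**Figure D1:**
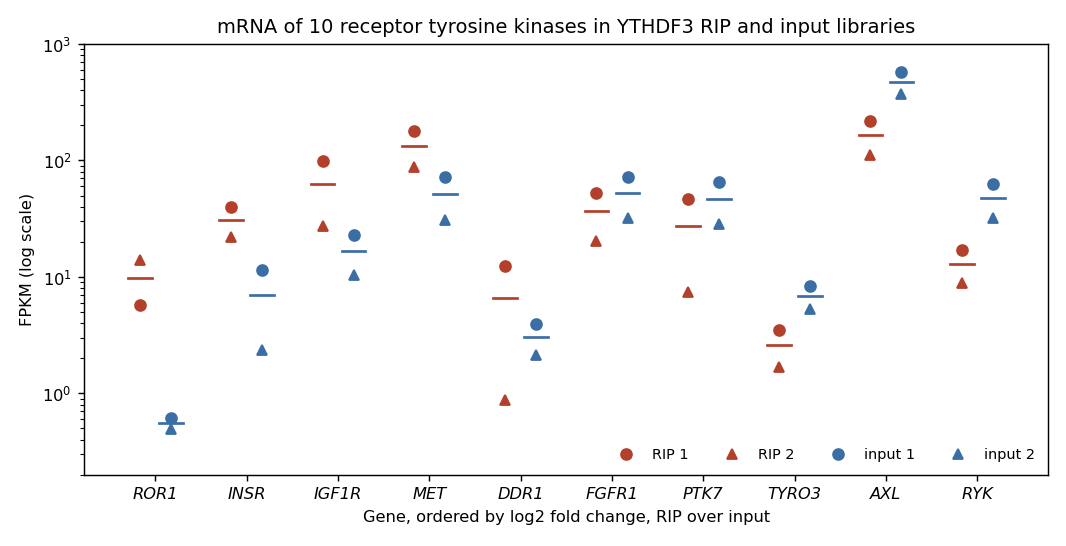
FPKM of each receptor in the 2 RIP libraries and the 2 input libraries, on a log axis, with 1 point per library and bars at the mean of each group. AXL was the most abundant of the 10 in all 4 libraries, and the RIP points of MET, IGF1R, INSR and ROR1 lie above their input points.

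AXL and TYRO3 belong to the TAM family of receptors, which bind GAS6 and protein S and take part in clearing dying cells and in invasion. AXL (ENSG00000167601, GRCh38 chr19:41219203-41261766, plus strand) had 220 and 111 FPKM in RIP and 578 and 371 FPKM in input. It ranked first among the receptors in every library, at percentiles of 98.9 and 96.3 of all tested genes in RIP and 99.2 and 98.6 in input. Both RIP values were below both inputs, and the RIP mean was 0.349 times the input mean. The difference did not pass the test (log2 fold change -1.56, SE 0.63, adjusted p = 0.0880 by limma). AXL was thus the most abundant of the 10 on either side and less abundant in both RIP libraries than in both inputs.

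TYRO3 (ENSG00000092445, chr15:41557675-41583586, plus strand) was far less abundant, with 3.51 and 1.68 FPKM in RIP and 8.43 and 5.27 FPKM in input. Its RIP values also lay below both inputs, and the difference did not pass the test (log2 fold change -1.15, SE 0.53, adjusted p = 0.120 by limma). The ratio of TYRO3 to AXL within a library, which does not depend on how that library was scaled, was 0.0159 and 0.0151 in RIP and 0.0146 and 0.0142 in input. That ratio was close to constant although the level of each receptor varied several-fold. The pseudogene TYRO3P, whose reads could be confused with those of TYRO3, had 0.374 and 0 FPKM in RIP and 0.083 and 0.278 FPKM in input. MERTK, the remaining TAM receptor, had 17.0 and 8.75 FPKM in RIP and 7.93 and 3.14 FPKM in input. Unlike AXL and TYRO3, both of its RIP values lay above both inputs (log2 fold change 1.12, adjusted p = 0.177 by limma), and the difference between the TAM receptors was not tested.

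MET, the receptor of hepatocyte growth factor (HGF), drives motility and invasive growth. MET (ENSG00000105976, chr7:116672390-116798386, plus strand) had 179 and 87.9 FPKM in RIP and 72.3 and 30.8 FPKM in input. Both RIP values were above both inputs, RIP 2 only a little above input 1. The RIP mean was 2.59 times the input mean (133 ± 64.3 FPKM in RIP and 51.6 ± 29.4 FPKM in input, SD, n = 2 each), and the difference did not pass the test (log2 fold change 1.39, SE 0.63, adjusted p = 0.118 by limma). Without RIP 2 the log2 fold change of MET was 1.90, and without RIP 1 it was 0.88. Relative to AXL in the same library, MET stood at 0.813 and 0.789 in RIP and at 0.125 and 0.0830 in input. MET and AXL were therefore much nearer to each other in both RIP libraries and several-fold apart in both inputs. Because MET lay above input and AXL below it, this ratio restates their fold changes and is no added support for them. With 2 libraries against 2, an exact two-sided permutation test of such a ratio cannot give a p below 0.333.

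INSR and IGF1R, the insulin receptor and its closest relative, are made as disulfide-linked dimers and signal through insulin receptor substrates to PI3K and AKT. IGF1R (ENSG00000140443, chr15:98648539-98964530, plus strand) had 98.2 and 27.6 FPKM in RIP and 23.1 and 10.4 FPKM in input. Both RIP values were above both inputs, the lower of them by little, and the difference did not pass the test (log2 fold change 1.68, SE 0.73, adjusted p = 0.105 by limma). INSR (ENSG00000171105, chr19:7112255-7294034, minus strand) had 39.9 and 22.0 FPKM in RIP and 11.6 and 2.37 FPKM in input. The RIP values stood above both inputs, with a 4.88-fold gap between the inputs themselves. The adjusted p narrowly missed the threshold (log2 fold change 2.24, SE 0.73, adjusted p = 0.0515 by limma). In percentiles of tested genes, INSR stood at 86.1 and 76.7 in RIP and at 57.1 and 20.1 in input. The direction was positive for both receptors in all 11 alternative settings, and INSR passed the threshold in 6 of them and IGF1R in 3. For each, these include the fit without RIP 2, which has 1 RIP library, and the one with RIP 2 shifted by chromosome to RIP 1. That shift narrows the gap between the RIP libraries by construction. Without RIP 2 the log2 fold change was 2.58 for IGF1R and 2.65 for INSR, and without RIP 1 it was 0.79 and 1.82.

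**Figure D2:**
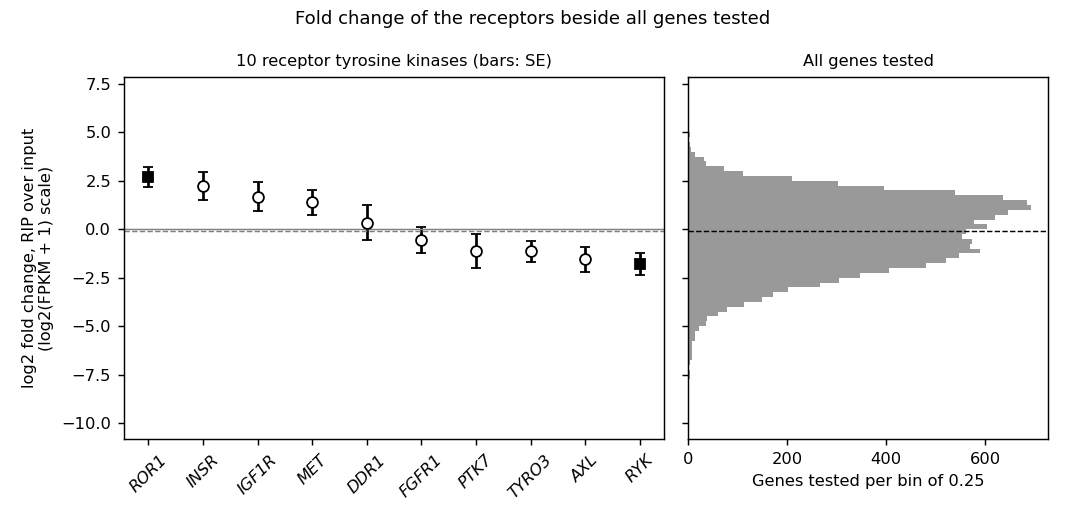
Log2 fold change of RIP over input for each receptor (left; filled squares passed the adjusted threshold, bars are standard errors), from limma on log2(FPKM + 1), and its distribution over 12848 genes (right). ROR1 (2.69) and RYK (-1.78) passed, the bars of FGFR1 and DDR1 cross 0, and all 10 lie within the bulk of the genes.

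Of the 3 Wnt-related receptors, 1 rose, 1 fell and PTK7 did not pass. ROR1 (ENSG00000185483, chr1:63774022-64181498, plus strand), a Wnt5a receptor of embryonic tissue that is re-expressed in several cancers, had 5.73 and 14.0 FPKM in RIP and 0.613 and 0.492 FPKM in input. The groups were far apart, and the input level was among the lowest 3.15% of tested genes, equivalent to about 25.3 reads in input 1 and 24.2 in input 2. ROR1 rose in RIP by 2.69 on the log2 scale (SE 0.53, adjusted p = 0.0147 by limma), and the RIP mean was 17.8 times the input mean. It lies on chromosome 1, where RIP 2 ran high, and it was the only receptor with more signal in RIP 2 than in RIP 1. Without RIP 2 the log2 fold change was 2.12, and with RIP 2 shifted chromosome by chromosome to RIP 1 it was 1.86. That shift narrows the gap between the RIP libraries by construction, so a smaller p after it is no added support for the call. The call held in 8 of the 10 alternative settings that included the gene. Those 8 include the shift and both fits without a RIP library, and the call was lost without either input. Because the gene passed the filter on low values only through RIP, a difference was built into its being tested.

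RYK (ENSG00000163785, chr3:134065303-134250744, minus strand), which binds Wnt through a WIF domain, had 17.0 and 8.92 FPKM in RIP and 62.7 and 31.9 FPKM in input. Both RIP values were below both inputs. RYK fell by 1.78 on the log2 scale (SE 0.57, adjusted p = 0.0477 by limma), to 0.274 times the input mean. That call was lost without RIP 2, where the log2 fold change was -1.34. It was lost without either input as well, and held in 5 of 11 alternative settings. Relative to AXL, RYK stood at 0.0775 and 0.0800 in RIP and at 0.109 and 0.0862 in input, while IGF1R stood at 5.76 and 3.09 times RYK in RIP and at 0.369 and 0.326 times RYK in input. The order of IGF1R and RYK was reversed between RIP and input in both libraries of each. IGF1R lay above input and RYK below it, so the change in their ratio restates their fold changes and is no added support for them.

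PTK7 (ENSG00000112655, chr6:43076268-43161719, plus strand), a co-receptor of planar cell polarity signalling, had 46.9 and 7.37 FPKM in RIP and 64.7 and 28.5 FPKM in input. RIP 1 lay between the inputs and RIP 2 below both. No difference passed the test (log2 fold change -1.14, SE 0.89, adjusted p = 0.328 by limma). The direction depended on the library: the log2 fold change was 0.12 without RIP 2 and -2.39 without RIP 1. The ratio of PTK7 to FGFR1 was 0.889 and 0.364 in RIP and 0.898 and 0.883 in input, so RIP 2 differed from the other libraries.

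FGFR1, a receptor for fibroblast growth factors, and DDR1, a receptor for collagen, did not separate the groups. FGFR1 (ENSG00000077782, chr8:38400215-38468834, minus strand) had 52.8 and 20.2 FPKM in RIP and 72.1 and 32.2 FPKM in input, and RIP 1 fell between the inputs (log2 fold change -0.54, SE 0.66, adjusted p = 0.523 by limma). FGFR1 shares 138 exon bases with LETM2 on the opposite strand, which had 5.92 and 3.42 FPKM in RIP and 19.6 and 19.4 FPKM in input, and whether counting used strand is not given in the sources used here. DDR1 (ENSG00000204580, chr6:30876421-30900156, plus strand) had 12.4 and 0.869 FPKM in RIP and 3.91 and 2.15 FPKM in input. Its RIP values lay on either side of both inputs (log2 fold change 0.35, SE 0.92, adjusted p = 0.776 by limma). The log2 fold change of DDR1 was 1.77 without RIP 2 and -1.07 without RIP 1. The RIP 2 value of DDR1 stood on about 24.6 reads.

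**Figure D3:**
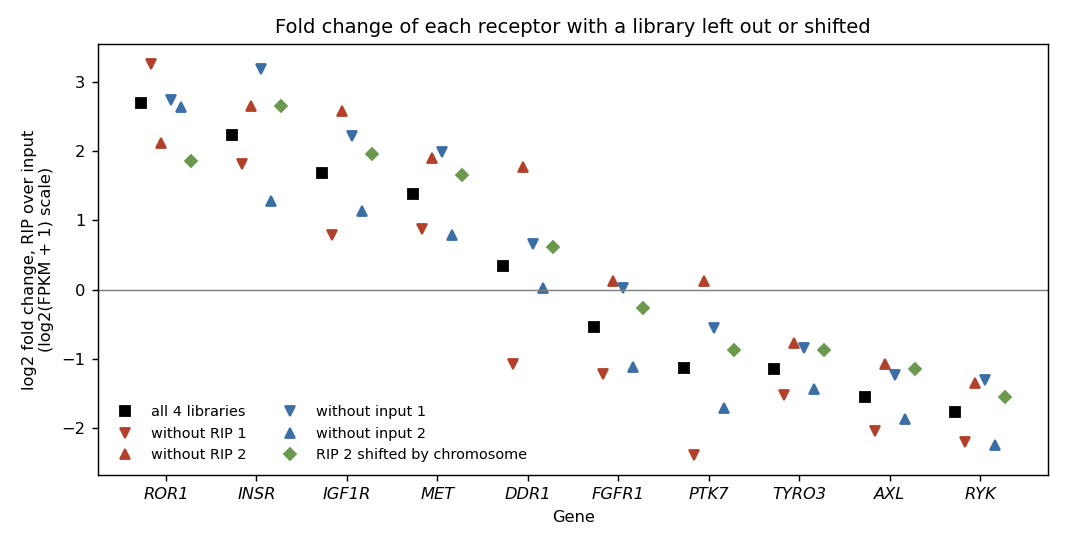
Log2 fold change of each receptor with all 4 libraries (squares), without each library in turn (triangles) and with RIP 2 shifted by chromosome (diamonds). PTK7, FGFR1 and DDR1 have points on both sides of 0, whereas the other 7 keep one side of 0.

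The order of levels shows how the groups differed. AXL was first in every library. MET was next in both RIP libraries and in input 1, but only the fourth in input 2, after FGFR1 and RYK, which at 32.2 and 31.9 FPKM were within a few percent of MET at 30.8 FPKM. IGF1R was the third receptor in both RIP libraries and the sixth in both inputs. ROR1 was the ninth and the sixth in RIP and the lowest in both inputs. Among neighbours, MET and AXL differed less in RIP than the RIP libraries differed from each other, and FGFR1 and PTK7 differed less in input than the inputs did. By contrast AXL exceeded the next receptor in each input by several-fold.

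A further pattern ran between libraries of a group rather than between groups. RIP 1 exceeded RIP 2 for 9 of 10 receptors, and input 1 exceeded input 2 for 10 of 10, by 1.25-fold for ROR1 to 4.88-fold for INSR. Among 10852 tested protein-coding genes the same held for 66.5% in RIP and 54.5% in input. The median receptor difference was 1.00 log2 units in RIP and 1.02 in input, and over protein-coding genes it was 0.41 in RIP and 0.05 in input. On the chromosomes of the receptors other than ROR1, the median of RIP 2 minus RIP 1 over protein-coding genes ran from -0.83 to -0.45. On chromosome 1, which holds ROR1, it was 1.67. In RIP, each receptor thus differed in the direction of its chromosome's median. The receptors have long exonic sequence, 5154 bases or more, and 5462 protein-coding genes at least that long had medians of 0.32 in RIP and 0.09 in input. Those long genes also had a median RIP-over-input log2 fold change of 0.42, above the -0.10 of all genes tested. The cause of the differences between libraries was not tested, and they enter the standard errors given above.

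**Figure D4:**
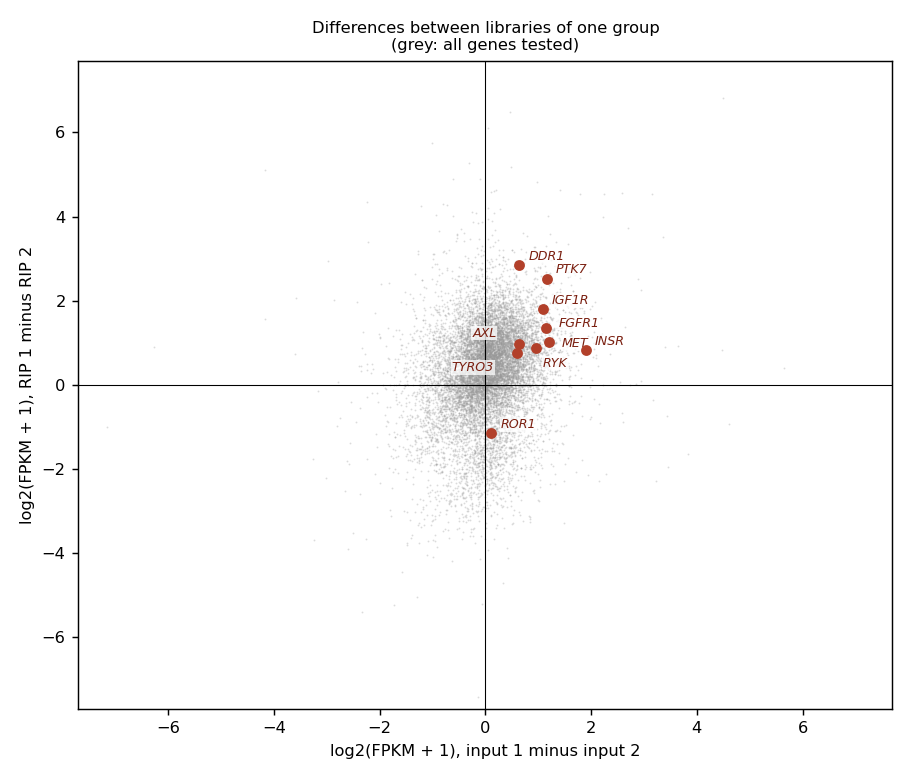
Log2 difference between RIP 1 and RIP 2 and between input 1 and input 2 for all 12848 tested genes (grey dots) and the 10 receptors (red). Only ROR1 lies below 0 on the RIP axis, and every receptor lies right of 0 on the input axis.

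The receptors share several transcript features. Their coding sequences ran from 1833 to 4227 bases with a median of 2787, against a median of 1413 over tested protein-coding genes. The 4 receptors above input had 2814 to 4227 coding bases, and the 3 below had 1833 to 2685. PTK7, whose groups overlapped with a negative log2 fold change, had 3237, inside the range of the receptors above input. Density of the DRACH motif was 19.2 to 19.5 per kilobase of transcript in the 4 above, 17.5 to 18.2 in the 3 below, and as low as 14.2 in DDR1 and 15.1 in PTK7, with a median of 19.0 over all genes. These groupings of receptors were made after their values were seen and carry no test, and both ranges lie within the middle of the distribution over all genes (quartiles 16.6 and 21.2 per kilobase). FGFR1, which overlapped between groups, had 19.5 per kilobase. The transcript chosen for its long coding sequence ends in a 3′ UTR of 218 bases for MET, 429 for INSR, 122 for DDR1 and 129 for PTK7. Their longest annotated 3′ UTRs have 2262, 4801, 860 and 882 bases, so the motif counts and densities of these 4 leave out most of that sequence.

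By Euclidean distance over the 4 log2 values, the genes nearest to AXL were CFL1 (distance 0.78), RPL3 (0.82) and CANX (0.95), which encode an actin-severing protein, a ribosomal protein and an endoplasmic reticulum chaperone. CFL1 had 140 and 104 FPKM in RIP and 474 and 459 FPKM in input. Nearest to MET were PXDN (0.37), DAP (0.50) and CDH11 (0.56), and PXDN, the extracellular matrix protein peroxidasin, had 173 and 68.7 FPKM in RIP and 72.2 and 28.7 FPKM in input. This likeness covers 4 libraries only and says nothing of shared function.

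Around the receptors, the partners that carry or limit the signal were counted from lists of the pathway, in the order ligands, adaptors, inhibitors and binding proteins. Each count is to be read against the 15.4% of all tested genes that were called higher and the 24.3% called lower. Of those 12848 genes, 10852 are protein-coding, and the lists were not matched to them for length. Protein-coding genes with at least 5154 exonic bases had a median log2 fold change of 0.42, so a positive list median may in part reflect gene class or length, which was not tested. Of 26 ligands, 13 were tested: 5 rose (38.5%), 1 fell (7.69%), and the median log2 fold change was 0.58. Without RIP 2, 6 were called higher, PROS1 no longer passed and the median was 0.79, and without RIP 1, 5 were higher and 2 lower with a median of 0.36. HGF, IGF1, INS and FGF19 were listed at 0 in all 4 libraries, and IGF2 had at most 1.19 FPKM, so the main ligands of MET, IGF1R and INSR were listed at 0 or near 0. The neurotrophin BDNF rose, with 135 and 44.9 FPKM in RIP and 10.4 and 8.14 FPKM in input (2.96 on the log2 scale, adjusted p = 0.0172 by limma). PDGFC rose by 2.07, PDGFA by 1.69 and WNT5B by 2.11 (adjusted p = 0.0245, 0.0429 and 0.0351). PROS1, which encodes protein S, fell, with 1.78 and 0.813 FPKM in RIP and 9.03 and 4.48 FPKM in input (-1.72 on the log2 scale, adjusted p = 0.0412). That call held in 5 of 11 alternative settings, and without RIP 2 the adjusted p was 0.0661. The log2 fold changes of GAS6 (-0.18), FGF5 (0.58) and MDK (-1.65) did not pass. GAS6, a ligand of AXL and TYRO3, had 50.9 and 13.3 FPKM in RIP and 40.5 and 22.0 FPKM in input.

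Of 32 adaptors and first enzymes, 28 were tested: 6 rose (21.4%) and 1 fell (3.57%). The share that rose was near that of all genes, and the median log2 fold change was 1.21. That median includes a gene that passed the filter on low values only through RIP. This gene had 5.13 and 1.48 FPKM in RIP and 0.741 and 0.502 FPKM in input. The substrates of INSR and IGF1R both rose: IRS1 had 67.7 and 25.3 FPKM in RIP and 7.06 and 7.13 FPKM in input (2.39 on the log2 scale, adjusted p = 0.0246 by limma), and IRS2 had 12.1 and 9.73 FPKM in RIP and 1.56 and 2.58 FPKM in input (1.97, adjusted p = 0.0252). The SH2 and SH3 adaptors NCK1 (2.40) and CRKL (2.27), the PI3K regulatory subunit PIK3R1 (1.59) and the RAS exchange factor SOS1 (1.57) rose as well, PIK3R1 not without RIP 2 (adjusted p = 0.0518). The log2 fold changes of CRK (1.48), SHC1 (1.42) and NRAS (-0.21) did not pass, and both SHC1 and NRAS are on chromosome 1. Of the adaptors, 13 were called higher and 2 lower without RIP 2, and 10 higher and 2 lower without RIP 1.

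Of 26 receptor inhibitors and feedback genes, 23 were tested: 9 rose (39.1%), 1 fell (4.35%), and the median log2 fold change was 1.08. That median was 0.62 without RIP 1 and 0.65 without input 2. The Sprouty genes, which dampen RAS signalling downstream of receptors, rose in all 3 cases tested. SPRY4 had 254 and 113 FPKM in RIP and 37.2 and 36.0 FPKM in input (2.18 on the log2 scale, adjusted p = 0.0274 by limma). SPRY1 changed by 2.52 and SPRY2 by 1.95. SPRED2 (2.09), the phosphatase PTPN12 (1.77) and the ubiquitin ligase CBLB (1.24) rose, as did 3 genes of chromosome 1, ERRFI1 (3.09), PTPRF (2.33) and LRIG2 (2.30). Without RIP 2, which ran high on chromosome 1, LRIG2 no longer passed (1.51, adjusted p = 0.0790). SPRED2 (adjusted p = 0.0506) and CBLB (adjusted p = 0.0518) no longer passed without RIP 1. PTPN2, a phosphatase of INSR and other receptors, fell by 1.78. The log2 fold changes of PTPRJ (1.08), SPRED1 (0.36) and ADAM17 (0.18) did not pass.

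Several IGF-binding proteins hold insulin-like growth factors away from IGF1R. The 8 genes of this family and its partner subunit gave 5 tested genes, of which 3 fell (60.0%, median log2 fold change -2.35). IGFBP7 had 13.4 and 3.47 FPKM in RIP and 89.8 and 49.9 FPKM in input (-3.08 on the log2 scale, adjusted p = 0.0192 by limma), IGFBP6 fell by 3.03 and was listed at 0 in RIP 2, and IGFBP1 fell by 2.35. IGFBP4 (-1.66) and IGFBP3 (0.89) did not pass. IGFBP3 alone had both RIP values above both inputs, at 120 and 77.7 FPKM in RIP and 72.8 and 36.9 FPKM in input. With every gene above 0 tested, in place of the filter on low values, limma called 3 ligands and 2 adaptors higher, 1 adaptor lower, and 0 inhibitors or binding proteins. At an unadjusted p under 0.05 that fit had 9 inhibitors higher and 2 lower, and 3 binding proteins lower.

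Of 27 further receptor tyrosine kinases, 5 were tested and 0 passed the limma threshold (1 higher at an unadjusted p under 0.05). The median log2 fold change was 1.05 (0.68 without RIP 1 and 0.57 without input 2). That 1.05 is the value of a gene that passed the filter on low values only through RIP. It had 4.35 and 1.72 FPKM in RIP and 0.924 and 0.768 FPKM in input, so its rise was built in. Of the 27, 14 were under 0.1 FPKM in every library. Without RIP 2, 3 were called higher, and without RIP 1, 1 was called lower. LMTK2 came nearest, with 34.6 and 10.8 FPKM in RIP and 5.97 and 2.36 FPKM in input (2.08 on the log2 scale, adjusted p = 0.0563). TIE1, on chromosome 1, had 33.2 and 133 FPKM in RIP and 64.6 and 30.1 FPKM in input, so its groups overlapped. Of 21 EGFR, Eph and VEGF receptors, 9 were tested and 2 rose (22.2%), both on chromosome 1, with a median log2 fold change of 0.95. Without RIP 2, 5 of them were called higher with a median of 1.74, and without RIP 1, 2 were with a median of 0.36. The median was 1.58 without input 1 and 0.33 without input 2.

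**Figure D5:**
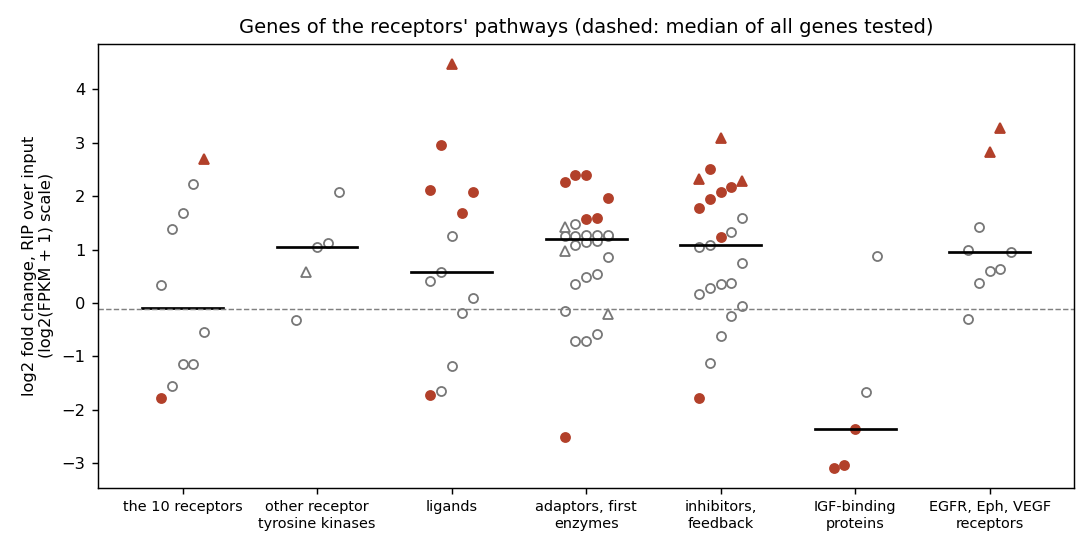
Log2 fold change of RIP over input for each tested gene of the receptors and of the pathway lists (filled where past the adjusted threshold, triangles on chromosomes 1 and 10), with a bar at the median of each list. The IGF-binding proteins lie mostly below 0, and the medians of adaptors (1.21) and inhibitors (1.08) lie above that of the 10 receptors (-0.10).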

How the data were processed

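Values were compared for 2 RIP and 2 input libraries, numbered in accession order. The authors deposited 1 value per gene and library with no unit in the file header, and the values fit the FPKM scale, as far as their sums show. HISAT2 and GRCh38 (hg38) come from the submitters' processing notes. The counter, its annotation and its strand setting were not given in the sources used here. The labels' extraction protocol mentions embryos and an m6A antibody, matching neither the cells nor the RIP antibody. FPKM is relative, so more of a transcript and less of the others cannot be told apart. Of 36217 rows, 14 with repeated identifiers were dropped, and 36125 of the remaining 36203 are in GENCODE release 29. Read depth was estimated by taking the commonest low value per kilobase as 1 read. Only 32.8% to 33.9% of low values were whole within 0.03 read, so no count test was run. Genes with at least 1 FPKM in 2 libraries were tested on log2(FPKM + 1) with limma 3.58.1 (mean-variance trend, two-sided, R 4.3.3), with a Benjamini-Hochberg threshold of 0.05 over 12848 genes. Fold changes on that scale understate changes of low genes. The test was checked on simulated data, with independent libraries and the same spread for every gene. That setting differs from these data, so the check does not show that the calls hold here. All 10 receptors are named; of each pathway list, the genes past the threshold and the 3 others with the highest mean FPKM are, and the EGFR, Eph and VEGF receptors are given as counts. The values of 2 listed genes that passed are not reported here. The receptors and lists were chosen with earlier results of these data known. In all, 11 alternative settings were tried.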

Additional observations from a re-analysis of the deposited data

How the results depend on the processing

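Of the 10 receptors, AXL, MET, ROR1, IGF1R, INSR, RYK and TYRO3 kept one direction in every one of the 11 settings that held them, and so did 36 of the 40 pathway genes that the naming rule selected. The number of receptors called higher was 1 with all libraries, 2 after quantile normalization and after scaling protein-coding genes to the same total (ROR1 and INSR), and 4 with RIP 2 shifted by chromosome. The number called lower was 1, but 0 with a pseudocount of 0.1, with no filter on low values and with protein-coding scaling, where limma gave 4, 3 and 5 receptors in either direction at an unadjusted p under 0.05. Leaving out 1 library gave 0 to 5 receptors higher, 0 to 4 lower and a median log2 fold change of -1.14 to 0.95. Of all genes, 1981 were higher and 3126 lower. With no filter 718 were higher, after quantile normalization 3085 were higher and 2831 lower, and with RIP 2 shifted 3518 and 3470. The shift narrows the spread between the RIP libraries by construction, so calls after it are no added support. Leaving out 1 library gave 0 to 3515 higher and 0 to 3933 lower. The counts of 0 came from leaving out an input, where at an unadjusted p under 0.05 limma had 737 higher and 2299 lower without input 1, and 608 and 2257 without input 2. With 1 library left in an arm, it is assumed to vary like the other group. The cause was not tested.

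Direction changed on leaving out 1 library for FGFR1 (-1.21 to 0.13), DDR1 (-1.07 to 1.77), PTK7 (-2.39 to 0.12), TIE1 (-0.40 to 1.57), GAS6 (-1.11 to 0.75), NRAS (-1.63 to 1.21) and ADAM17 (-0.16 to 0.51), and TIE1 was at -0.25 with RIP 2 shifted. The median of all genes was -0.10, and it was 0.13 after quantile normalization and -0.24 without chromosomes 1 and 10. In the same settings the median of the receptors was 0.10 and -0.54, the latter without ROR1.

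Each title suffix is shared by 1 RIP and 1 input library, with no meaning given in the labels. With it as a replicate block, 4 receptors were called higher (MET, ROR1, IGF1R and INSR) and 1 lower, and 2477 genes higher and 3466 lower. Across 12848 genes, the RIP difference correlated with the input difference at r = 0.21, as a description over genes that are not independent. Depth limits the low values most, those of ROR1 in the inputs and of DDR1 in RIP 2.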
